A study of Homo sapiens with 12 samples.

Results

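The comparison described here is that of Lo19S with control T47D cells while the proteasome was inhibited by bortezomib, and it rests on 6 of the 12 libraries of the study, 3 of each state. T47D is a luminal, estrogen receptor-positive breast cancer line. All cells carried an inducible short hairpin RNA (shRNA) against PSMD2, a gene of the 19S particle, the regulatory cap of the proteasome. For the Lo19S state the hairpin was switched on with 0.2 µg/ml doxycycline for 3 days, the cells were moved to medium without the drug, and 24 h later they received 20 nM bortezomib for 16 h. Controls were the same line with the hairpin uninduced, given the same bortezomib. The other 6 libraries, 3 of each state given the solvent DMSO, served as the background against which the effect was read. Doxycycline itself and the hairpin cannot be told apart in this design, and a single hairpin was used.

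The 26S proteasome degrades ubiquitinated proteins: the 20S core particle holds the proteolytic sites, among them the β5 site that bortezomib blocks, and the 19S particle binds, unfolds and feeds in substrates. When degradation is blocked, misfolded proteins accumulate and cells are known to switch on cytosolic heat shock genes through HSF1, proteasome genes through NFE2L1 (also called NRF1), antioxidant genes through NFE2L2 (NRF2) and the integrated stress response through ATF4. Cells with a lowered amount of 19S relative to 20S have been studied for their tolerance of proteasome inhibitors, and the comparison asks how the transcripts of the 2 states differ once the inhibitor is present.

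Polyadenylated RNA was counted per gene. Totals of the 6 bortezomib libraries ran from 7376597 to 15003480 counts, the extremes being Lo19S replicates 2 and 3. Levels are given as CPM, counts brought to a common library size by TMM (trimmed mean of M-values) scaling. They are not divided by transcript length and so compare libraries, not genes. The labels do not say whether the libraries were grown as separate cultures, so p-values measure a spread between libraries that may be technical. The first principal component of the 6 libraries held 55.3% of their variance and separated the states, and the second held 13.2% and separated Lo19S replicates 1 and 2. Among the bortezomib libraries, chi-square over its degrees of freedom ran from 1.15 to 1.26 for control pairs and 1.27 to 1.90 for Lo19S pairs. Counting error alone gives about 1, so control pairs differed by little more than that and Lo19S pairs by up to 1.90. Among the DMSO libraries, control replicate 3 differed most from its partners (chi-square over its degrees of freedom 3.64 and 3.99). The test takes its estimate of the spread from all 12 libraries. The p-values under bortezomib therefore also carry the spread of the DMSO libraries, and small ones rest on little more than repeat measurement. Luminal markers, 9 of 9 present, summed to 3928 to 4011 CPM in control and 3887 to 4062 CPM in Lo19S libraries under bortezomib. The 10 leukocyte markers summed to at most 2.57 CPM, with CD3E, CD3D and NKG7 at 0 in both groups. Endothelial markers (9 of 10 found) summed to 5.57 to 8.18 CPM in control and 2.78 to 3.94 CPM in Lo19S libraries, most of it ESAM, with EMCN and ERG at 0 in both. The 10 fibroblast markers summed to 63.6 to 70 CPM in control and 44.4 to 47.3 CPM in Lo19S libraries, most of it COL1A1, with COL1A2 and DCN at 0 in Lo19S and PDGFRA and POSTN at 0 in control libraries. The part of other cells in the results was not tested. In bulk RNA, fewer cells of a kind and less RNA per cell cannot be told apart.

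Under bortezomib, most cytosolic chaperone genes, DNA replication genes, cholesterol synthesis genes, NF-kappaB targets and ribosomal protein genes were lower in Lo19S than in control cells, and most luminal identity genes, aminoacyl-tRNA synthetases and fatty acid oxidation genes were higher. Proteasome subunit genes, apart from PSMD2, differed by little, and 13 of 30 were called higher and 2 lower. Of 14714 genes tested, 6349 (43.1%) were called between the states under bortezomib at an adjusted p below 0.05 (edgeR's quasi-likelihood test, Benjamini-Hochberg adjustment). Of these, 3230 (22% of the genes tested) were higher and 3119 (21.2%) lower in Lo19S cells. Counts of list members below are to be read beside these shares. A member can pass the count filter through 1 group alone, where it is high, and list counts and medians include such members. Under DMSO the shares were 11.7% higher and 13% lower. The test of the difference between the effects under bortezomib and DMSO called 14.4% higher and 13.4% lower. Most differences under bortezomib were small, with a median absolute log2 fold change of 0.36 among called genes. Over all genes tested that median was 0.23, and the median SE was 0.095. Differences without a stated unit are log2 fold changes of Lo19S against control cells. At least 2-fold differences were called for 334 genes that were higher (2.27%) and 260 that were lower (1.77%). All 3 Lo19S libraries lay above the 3 control libraries for 3937 genes (26.8%) and below them for 3842 (26.1%). The split depended on scaling. With library totals in place of TMM factors, 4920 genes (33.4%) were higher and 1883 (12.8%) lower, and the median log2 fold change of all genes moved from 0.0044 to 0.11. The most abundant genes move with that shift: the 49 heat shock and chaperone genes examined took 9.27% to 9.39% of all counts in control and 6.06% to 6.16% in Lo19S libraries under bortezomib, against 1.36% to 1.48% under DMSO. With the size factors of DESeq2 the split was 3056 higher and 3320 lower.

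**Figure D1:**
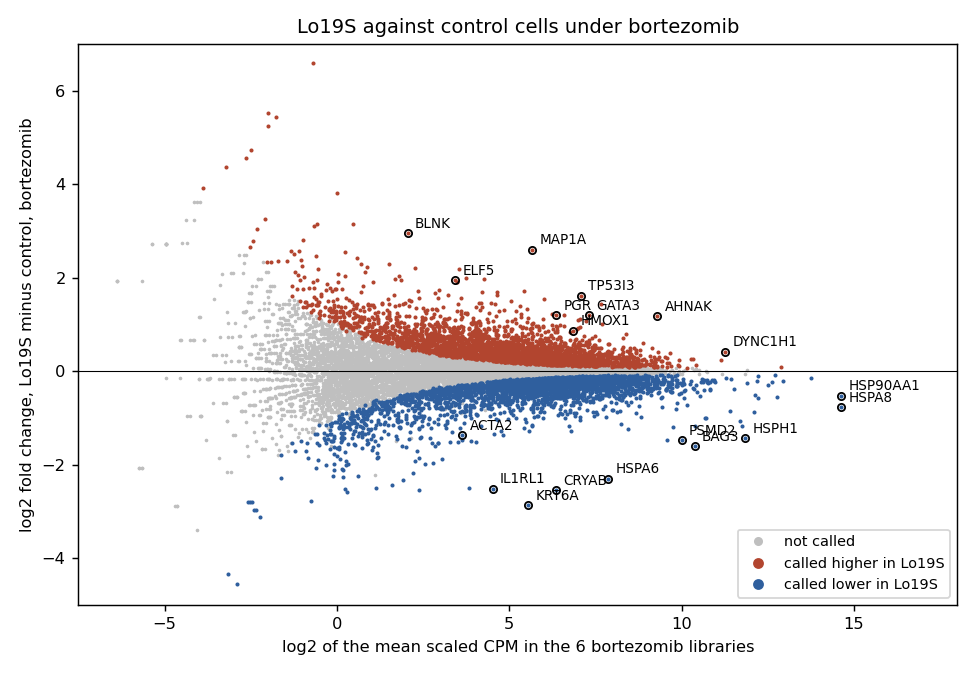
Each point is a gene, with the log2 of its mean scaled CPM in the 6 bortezomib libraries on the x axis and the log2 fold change of Lo19S against control cells on the y axis (genes without counts in these libraries are not drawn). Red and blue points are the 3230 genes called higher and the 3119 called lower in Lo19S cells, and the circled heat shock genes HSPA6, CRYAB, BAG3, HSPH1, HSPA8 and HSP90AA1 all lie below 0.

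PSMD2, the target of the hairpin, was at 1509, 1510.4 and 1528 CPM in the control libraries and 541, 546 and 539.6 CPM in the Lo19S libraries under bortezomib. The groups did not overlap, and PSMD2 was 2.8-fold lower in Lo19S cells (log2 fold change -1.48 (SE 0.033), adjusted p = 2.1e-36). Under DMSO it was at 406 ± 12.8 CPM in control and 185 ± 3.34 CPM in Lo19S libraries (SD, n = 3 each). The level in Lo19S cells with bortezomib was thus above that of control cells with DMSO, while the gap between the states on the log2 scale was wider with the drug (difference of effects -0.35, SE 0.047, adjusted p = 7.1e-08).

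Most cytosolic heat shock genes were lower in Lo19S cells. These genes encode chaperones that hold and refold unfolded proteins: HSP70 and HSP110 proteins, their HSP40 partners, HSP90 with its co-chaperones, and the small heat shock and BAG proteins. Over 4 lists of such genes, 45 members were measured, of which 33 were lower and 5 higher in Lo19S cells, with a median log2 fold change of -0.53 against 0.0044 over all genes. Under DMSO, 11 of the 45 were lower and 5 higher, with a median of -0.019. For 29 of them the Lo19S difference under bortezomib was lower than under DMSO by the test of that difference, and for 3 it was higher. By that test 13.4% of all genes were lower and 14.4% higher.

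The sequences of 4 heat shock promoters are shown because they hold the element that HSF1 is known to bind. They are the 250 bases before the transcription start in RefSeq (GRCh38.p14), written 5′ to 3′ on the gene's strand, and capitals mark matches to the heat shock element, taken as GAA, any 2 bases, TTC, any 2 bases and GAA, or its reverse complement. HSPA6 (chr1:161524290-161524539, plus strand) and DNAJB6 (chr7:157336754-157337003, plus strand) hold 1 match each, HSPA8 (chr11:123062137-123062386, minus strand) holds 2, and CHORDC1 (chr11:90223050-90223299, minus strand) holds 3 that overlap each other.
HSPA6: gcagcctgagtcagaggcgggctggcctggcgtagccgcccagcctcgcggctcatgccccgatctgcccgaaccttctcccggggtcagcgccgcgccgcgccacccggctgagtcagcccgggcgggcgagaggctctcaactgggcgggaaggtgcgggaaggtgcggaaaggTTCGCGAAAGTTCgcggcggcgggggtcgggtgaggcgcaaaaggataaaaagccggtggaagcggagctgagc
HSPA8: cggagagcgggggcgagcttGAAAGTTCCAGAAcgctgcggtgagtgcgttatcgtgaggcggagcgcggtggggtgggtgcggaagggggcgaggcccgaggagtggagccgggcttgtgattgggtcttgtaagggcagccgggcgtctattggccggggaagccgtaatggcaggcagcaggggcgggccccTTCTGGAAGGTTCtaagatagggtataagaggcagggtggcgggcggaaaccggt
CHORDC1: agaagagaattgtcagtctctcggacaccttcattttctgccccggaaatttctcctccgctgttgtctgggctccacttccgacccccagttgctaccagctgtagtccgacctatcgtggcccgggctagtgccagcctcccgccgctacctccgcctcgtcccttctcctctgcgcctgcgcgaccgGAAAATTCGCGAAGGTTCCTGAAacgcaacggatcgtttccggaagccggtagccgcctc
DNAJB6: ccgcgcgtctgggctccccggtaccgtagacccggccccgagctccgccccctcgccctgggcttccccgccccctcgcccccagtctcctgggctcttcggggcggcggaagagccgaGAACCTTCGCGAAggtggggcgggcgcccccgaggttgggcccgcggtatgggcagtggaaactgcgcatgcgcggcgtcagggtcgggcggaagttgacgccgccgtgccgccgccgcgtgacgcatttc
Of the 39 measured members with a promoter in the table, 5 hold a match in the window from 250 bases before to 50 after the start, the 4 shown and DNAJA1. Over all promoters in the table, 133 of 27305 (0.487%) hold it. The lists were chosen as heat shock genes, so the shares are given without a test and say nothing of the Lo19S difference. HSPA1A, HSPA1B, HSPH1, BAG3 and DNAJB1 are not among the 5. A match describes letters in a window, and binding was not measured.

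Among HSP70 and HSP110 genes, 10 of 11 were lower and none was higher, with a median log2 fold change of -0.87. HSPA6, a strictly stress-induced HSP70, was at 381, 394 and 389.9 CPM in control and 76.2, 83.8 and 77.5 CPM in Lo19S libraries. Every Lo19S library was far below every control library, a 4.92-fold difference (log2 fold change -2.30 (SE 0.051), adjusted p = 1.4e-35). Under DMSO it was near the limit of detection in both states, at 0.735 ± 0.258 and 0.802 ± 0.602 CPM (SD, n = 3 each). HSPA1A and HSPA1B, the main stress-inducible HSP70 genes, are near-identical, so how reads were divided between them is uncertain. HSPA1A was at 4472, 4686 and 4396 CPM in control and 2114, 2149.9 and 2159 CPM in Lo19S libraries (log2 fold change -1.08 (SE 0.033), adjusted p = 2e-30). HSPA1B differed by about as much (log2 fold change -1.17 (SE 0.036), adjusted p = 3.3e-28). HSPH1, the HSP110 that helps HSP70 release its nucleotide, was 2.71-fold lower, at 5369.9, 5388 and 5314 CPM in control against 1969.7, 1950.1 and 1999 CPM in Lo19S libraries (log2 fold change -1.44 (SE 0.034), adjusted p = 1.5e-34). The constitutive HSPA8 (HSC70) lost more CPM than any other gene, from 31806 ± 483 to 18682 ± 527 CPM (SD, n = 3; log2 fold change -0.77 (SE 0.03), adjusted p = 3.3e-26). HSPA4, another HSP110, differed less, with a log2 fold change of -0.28 (adjusted p = 3.4e-08). HSPA13, a microsomal member of the family, had a log2 fold change of 0.063 (adjusted p = 0.23).

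Small heat shock and BAG genes held some of the widest gaps, with 6 of 9 members lower and 1 higher (median -0.49). CRYAB, the small heat shock protein αB-crystallin, was at 141, 149 and 133 CPM in control and 26.4, 23.4 and 22.8 CPM in Lo19S libraries. It was 5.87-fold lower, without overlap (log2 fold change -2.55 (SE 0.069), adjusted p = 1.3e-32). BAG3, which links HSP70 to autophagy of aggregates, was at 2004, 2014 and 1974 CPM in control and 679.7, 647 and 642 CPM in Lo19S libraries (log2 fold change -1.61 (SE 0.034), adjusted p = 7.7e-37). Under DMSO the difference had the other sign, with BAG3 higher in Lo19S cells by 0.35 on the log2 scale (adjusted p = 1.4e-06). HSPB1 (HSP27) and HSPB8, a partner of BAG3, had log2 fold changes of -0.88 (adjusted p = 0.0002) and -0.86 (adjusted p = 1.7e-27). BAG2, an inhibitor of the HSP70-bound ubiquitin ligase CHIP, went the other way, at 47.3, 52.2 and 50.4 CPM in control and 90.4, 92.2 and 89.7 CPM in Lo19S libraries (log2 fold change 0.86 (SE 0.062), adjusted p = 4.1e-16). STUB1, which encodes CHIP itself, was also higher, by 0.30 (adjusted p = 0.00017).

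For the HSP40 genes, 8 of 12 were lower and 3 higher (median -0.45). DNAJB1, the main stress-inducible HSP40, was at 2169.7, 2256 and 2235 CPM in control and 1119.6, 1130.0 and 1096 CPM in Lo19S libraries, 1.99-fold lower (log2 fold change -0.99 (SE 0.034), adjusted p = 1.1e-28). DNAJA4 was 2.3-fold lower (log2 fold change -1.20 (SE 0.033), adjusted p = 2.9e-32). The 3 higher members, DNAJC5, DNAJA2 and DNAJC21, were so by 0.30, 0.19 and 0.19 on the log2 scale. Of HSP90 and its co-chaperones, 9 of 13 were lower and 1, STUB1, higher (median -0.36). HSP90AA1, the inducible HSP90, was at 30358, 29998 and 29857 CPM in control and 20807, 20554 and 21234 CPM in Lo19S libraries (log2 fold change -0.53 (SE 0.038), adjusted p = 1.9e-12). HSP90AB1, the constitutive form, was lower, at -0.55 (adjusted p = 3.6e-21). FKBP4 and STIP1, co-chaperones of HSP90, had log2 fold changes of -0.72 (adjusted p = 8.9e-25) and -0.58 (adjusted p = 2.7e-20). FKBP5 and PTGES3, from the same list, had values of 0.014 and -0.046 and were not called. Chaperonins, which fold proteins inside a ring, included 8 of 10 members that were lower and none higher (median -0.29). The mitochondrial pair HSPE1 and HSPD1 had the largest values of that list, -0.71 (adjusted p = 3.6e-14) and -0.52 (adjusted p = 8.8e-16), ahead of the cytosolic TCP1 at -0.46 (adjusted p = 9.2e-16).

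HSF1, the transcription factor of the heat shock response, differed little in transcript level. It was at 131, 131 and 129 CPM in control and 116, 124 and 120.3 CPM in Lo19S libraries, with all Lo19S libraries below but a log2 fold change of -0.12 that was not called (adjusted p = 0.066). With other scaling (DESeq2 size factors) the adjusted p of HSF1 was 0.038, with the 6 bortezomib libraries alone 0.01 and without control DMSO replicate 3 0.0094. HSF2, a second factor of this family, had a value of -0.17 (adjusted p = 0.1, and 0.033 with the 6 bortezomib libraries alone or without control DMSO replicate 3).

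**Figure D2:**
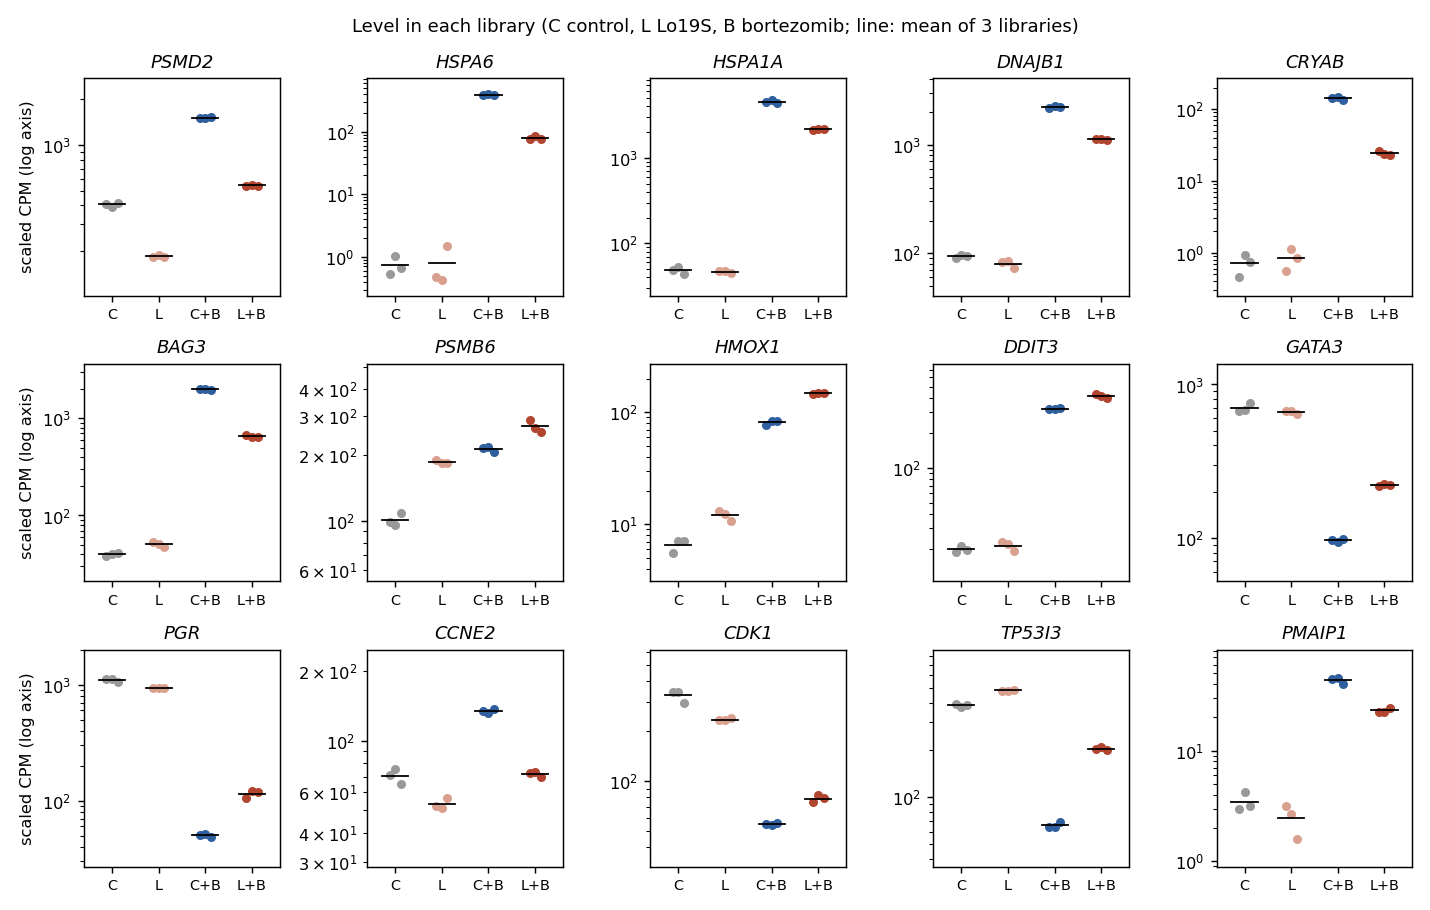
Each point is a library, with its scaled CPM on a log axis, for control (C) and Lo19S (L) cells under DMSO and the same under bortezomib (C+B, L+B), and horizontal lines are means of 3 libraries. HSPA6, HSPA1A, DNAJB1, CRYAB and BAG3 sit lower in L+B than in C+B without overlap, while HMOX1, DDIT3, GATA3, PGR, CDK1 and TP53I3 sit higher.

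Proteasome subunit genes other than PSMD2 leaned higher in Lo19S cells under bortezomib by small steps, to an extent that depended on scaling. Of 30 measured subunits, 13 were higher and 2 lower in Lo19S cells, with a median log2 fold change of 0.083. Over all genes 22% were higher and 21.2% lower. Under DMSO 29 of the 30 were higher with a median of 0.61, where over all genes 11.7% were higher. For 27 the gap between the states was smaller with bortezomib than with DMSO by the test of that difference, and for none was it larger. Among all genes that test called 13.4% lower and 14.4% higher. In the 19S particle, 6 of 17 subunits were higher and 2 lower (13 and 0 with library totals). PSMD1, the other large scaffold subunit of the 19S base, was at 444, 426 and 427 CPM in control and 525, 517 and 519 CPM in Lo19S libraries (log2 fold change 0.27 (SE 0.036), adjusted p = 2.6e-08). PSMD4, a ubiquitin receptor, was similar in size (log2 fold change 0.29 (SE 0.038), adjusted p = 2.1e-08). PSMD12, a lid subunit, was lower (log2 fold change -0.17 (SE 0.04), adjusted p = 0.00042), a difference that was not called with library totals (adjusted p = 0.20). The second lower member, the ATPase PSMC1, had a value of -0.43 (adjusted p = 0.0087) and was not called without Lo19S replicate 3 (adjusted p = 0.051) or with library totals (0.051).

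In the 20S core, 7 of 13 subunits were higher and none lower (median 0.16). With library totals 10 were higher and none lower, where over all genes 33.4% were higher. PSMB6, the caspase-like β1 subunit, was at 216, 218 and 207 CPM in control and 288, 265 and 256 CPM in Lo19S libraries, 1.26-fold higher without overlap (log2 fold change 0.33 (SE 0.044), adjusted p = 1.8e-08). Under DMSO the same gene was at 101 ± 6.54 CPM in control and 185 ± 4.12 CPM in Lo19S libraries (SD, n = 3 each), a log2 difference of 0.87. PSMB5, the chymotrypsin-like β5 subunit that bortezomib binds, had a log2 fold change of 0.24 (SE 0.043, adjusted p = 8e-06). NFE2L1, the factor that raises proteasome genes under inhibition, was higher in Lo19S cells, at 610.0, 628 and 622 CPM in control and 718, 748 and 709.6 CPM in Lo19S libraries (log2 fold change 0.23 (SE 0.033), adjusted p = 1.8e-07). NGLY1, the glycanase that processes the NFE2L1 protein, was also higher, by 0.18 (adjusted p = 0.0047), and DDI2, its protease, had a value of 0.081 and was not called.

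Assembly factors and activators included 6 of 14 higher and 2 lower members (11 and 1 with library totals). PAAF1, which holds 19S ATPases apart from the core, was higher by 0.34 (adjusted p = 0.00051). AKIRIN2, which carries proteasomes into the nucleus, was lower, at -0.27 (adjusted p = 0.00029). Antigen-presentation genes leaned lower under the scaling used, with 5 of 13 lower and 2 higher, though their median of -0.11 turned to 0.006 with library totals. HLA-E, a class I heavy chain, was at 246, 256 and 243 CPM in control and 167, 171 and 159.7 CPM in Lo19S libraries (log2 fold change -0.59 (SE 0.045), adjusted p = 4.7e-15). NLRC5, a transactivator of class I genes, differed by -0.79 (adjusted p = 0.0011). PSMB9, an inducible core subunit, was among the higher genes but near 1 CPM, at 0.855, 0.334 and 0.476 CPM in control and 1.31, 1.02 and 1.51 CPM in Lo19S libraries. It was not called without control replicate 2 or Lo19S replicate 3 (adjusted p = 0.082 and 0.088), which leaves 1 higher member of that list.

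Calls among ubiquitin genes and shuttle factors were about as frequent as over all genes (22% higher, 21.2% lower). Of 23 measured, 5 were lower and 4 higher (3 and 10 with library totals, 8 lower without control DMSO replicate 3), and their median of -0.03 turned to 0.08 with library totals. ZFAND2A (AIRAP), an arsenite- and heat-shock-inducible proteasome partner, was at 489, 492 and 486 CPM in control and 211, 205 and 202 CPM in Lo19S libraries, 2.37-fold lower (log2 fold change -1.25 (SE 0.04), adjusted p = 6.5e-30). The stress-inducible polyubiquitin gene UBB was lower as well (log2 fold change -0.49 (SE 0.043), adjusted p = 1.1e-10). SQSTM1 (p62), a receptor that carries ubiquitinated cargo to autophagy, was at 2065, 2097 and 2053 CPM in control and 2472, 2439 and 2412 CPM in Lo19S libraries (log2 fold change 0.24 (SE 0.03), adjusted p = 9.9e-09). UCHL1, a deubiquitinase, was 2.1-fold higher, from 19.7 ± 1.01 to 41.3 ± 2.21 CPM (SD, n = 3; adjusted p = 3.6e-15). Its gap under DMSO was wider, 2.25 on the log2 scale, and the difference between the treatments was -1.18 (adjusted p = 5e-09). VCP, the p97 segregase, was higher by 0.14 (adjusted p = 0.00034).

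Genes of the unfolded protein response of the endoplasmic reticulum leaned lower, with 12 of 24 lower and 5 higher (median -0.15). The number higher fell to 2 without Lo19S replicate 3 and to 3 without control replicate 1. The co-chaperones DNAJB9 and DNAJB11 had log2 fold changes of -0.54 (adjusted p = 1.1e-09) and -0.45 (adjusted p = 3.8e-15). CRELD2, a secreted folding factor, was at 129, 124 and 126 CPM in control and 90.7, 88.5 and 94.9 CPM in Lo19S libraries (log2 fold change -0.46 (SE 0.052), adjusted p = 4.2e-10). HERPUD1, part of the degradation machinery of that organelle, was lower, at -0.36 (adjusted p = 5.3e-09). XBP1, the factor whose mRNA is spliced by IRE1 and which is also a luminal estrogen-responsive gene, went the other way, at 202, 191 and 195 CPM in control and 247, 272 and 264 CPM in Lo19S libraries (log2 fold change 0.41 (SE 0.042), adjusted p = 2.1e-11). HSPA5 (BiP), the main chaperone of the organelle, gained the most CPM after DYNC1H1 and AHNAK, from 7293 ± 88.3 to 7756 ± 85 CPM, although its log2 fold change was 0.089 (adjusted p = 0.017) and was not called without control replicate 1 (adjusted p = 0.071), without Lo19S replicate 3 (0.070) or with DESeq2 (0.068).

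Targets of ATF4 and the integrated stress response leaned higher, with 11 of 26 higher and 4 lower (18 and 3 with library totals; median 0.10). ATF4 itself was lower, at 348, 334 and 343 CPM in control and 303, 280.2 and 279.6 CPM in Lo19S libraries (log2 fold change -0.25 (SE 0.041), adjusted p = 2.3e-06). DDIT3 (CHOP), a pro-apoptotic factor downstream of ATF4, was at 318, 323 and 324 CPM in control and 435, 414 and 397 CPM in Lo19S libraries (log2 fold change 0.37 (SE 0.039), adjusted p = 7.5e-11). Among the higher members, which were chosen after their values were seen, ASNS, PSAT1 and PSPH, enzymes of amino acid synthesis, were higher by 0.42, 0.41 and 0.52 on the log2 scale (adjusted p = 1.5e-10, 1.7e-10 and 1.3e-07). ALDH1L2, a mitochondrial folate enzyme, was 2.01-fold higher (log2 fold change 1.01 (SE 0.078), adjusted p = 2.6e-14). PPP1R15A (GADD34), which directs dephosphorylation of eIF2α and so ends the response, was the clearest exception, at 408, 417 and 411 CPM in control and 184, 195 and 189 CPM in Lo19S libraries (log2 fold change -1.12 (SE 0.041), adjusted p = 1.7e-27). Cytosolic aminoacyl-tRNA synthetases, many of them ATF4 targets, were higher in 15 of 20 cases and lower in 1, HARS1 (median 0.15). AARS1 was at 552, 547 and 561 CPM in control and 737, 723 and 732 CPM in Lo19S libraries (log2 fold change 0.40 (SE 0.032), adjusted p = 1.2e-14), and GARS1 was higher by 0.38 (adjusted p = 6.6e-14). Under DMSO 3 synthetases were higher and 1 lower, and for 12 the gap between the states was higher with bortezomib than with DMSO by test. By that test 14.4% of all genes were higher.

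NRF2 targets, the antioxidant genes, split by gene, with 8 of 24 higher and 7 lower (median 0.099). The shares over all genes were 22% higher and 21.2% lower. HMOX1, the heme-degrading enzyme, was at 77.6, 83.2 and 84.1 CPM in control and 147, 149.8 and 150.0 CPM in Lo19S libraries, 1.82-fold higher (log2 fold change 0.87 (SE 0.053), adjusted p = 1.2e-18). SLC48A1, a heme transporter, was higher by 0.84 (adjusted p = 9.9e-14). FTL, the ferritin light chain, went down instead, from 1153, 1172 and 1125 CPM in control to 733, 714 and 715 CPM in Lo19S libraries (log2 fold change -0.67 (SE 0.033), adjusted p = 1.5e-22), with the caution that it has many pseudogenes. Under DMSO FTL was higher in Lo19S cells by 0.77 (adjusted p = 4.8e-19). NFE2L2 was lower, at -0.19 (adjusted p = 0.001), a call lost with library totals (adjusted p = 0.19), and its small MAF partners MAFF, MAFK and MAFG were lower, at -0.72, -0.58 and -0.57 (adjusted p = 5.2e-15, 7e-15 and 8.6e-17). Glutathione transferases and peroxidases were more often higher, with 11 of 20 higher and 1 lower (median 0.18). The lower member, the peroxiredoxin PRDX3, was not called without any 1 of control replicates 1 and 3 and Lo19S replicates 2 and 3, nor with library totals, which leaves 0 lower members. MGST1, a membrane-bound transferase, was at 381, 355 and 374 CPM in control and 521, 503 and 502 CPM in Lo19S libraries (log2 fold change 0.46 (SE 0.036), adjusted p = 4.9e-15). GPX3, a secreted peroxidase, was higher by 0.45 under bortezomib (adjusted p = 1.7e-13) and by 2.06 under DMSO (adjusted p = 1.1e-34). The metallothioneins MT1X and MT2A, the 2 measured of 11 listed, had log2 fold changes of 0.23 and 0.30 and were not called.

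Most nuclear-encoded subunits of oxidative phosphorylation were not called. Of 51, 16 were higher, 2 lower (NDUFA10 and COX4I1) and 33 not called, with a median of 0.10, where over all genes 22% were higher and 21.2% lower. With library totals 35 were higher and none lower, where over all genes 33.4% were higher. Without Lo19S replicate 3 no member was lower, and without control DMSO replicate 3 there were 4. ATP5F1A, the α subunit of ATP synthase, was at 322, 323 and 317 CPM in control and 409, 408 and 416 CPM in Lo19S libraries, 1.28-fold higher (log2 fold change 0.36 (SE 0.035), adjusted p = 4.7e-12). The 13 genes of mitochondrial DNA were lower in 9 cases and higher in none (median -0.16), and 5 were lower with library totals. MT-ND2, a complex I subunit, was at 6099.8, 6458 and 6546 CPM in control and 5364, 5174 and 4918 CPM in Lo19S libraries (log2 fold change -0.31 (SE 0.032), adjusted p = 5e-11), and MT-CYB of complex III was lower, at -0.23 (adjusted p = 3.7e-08). Under DMSO 4 of these 13 were higher and none lower, and for 10 the gap was lower with bortezomib than with DMSO by test. By that test 13.4% of all genes were lower.

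Genes of fuel oxidation leaned higher. The tricarboxylic acid cycle list, which includes cytosolic forms, had 8 of 16 genes higher and none lower (median 0.16). Its largest value was that of IDH1, the cytosolic NADP-dependent isocitrate dehydrogenase, which is not part of the mitochondrial cycle. IDH1 was at 54.1, 53 and 53 CPM in control and 102, 99.9 and 96.5 CPM in Lo19S libraries (log2 fold change 0.89 (SE 0.056), adjusted p = 2.4e-18). The mitochondrial MDH2 and IDH2 were higher by 0.31 and 0.30 (adjusted p = 2.2e-09 and 6.4e-05). Fatty acid oxidation genes were higher in 12 of 22 cases and lower in 2 (median 0.24). CPT1A, the liver-type carnitine palmitoyltransferase that admits fatty acids to mitochondria, was at 56.8, 54.8 and 52 CPM in control and 90, 92.2 and 94.8 CPM in Lo19S libraries, 1.7-fold higher (log2 fold change 0.76 (SE 0.053), adjusted p = 1e-16). Its partners SLC25A20 and CPT2 were higher by 0.65 and 0.48 (adjusted p = 5.6e-07 and 2.2e-08). Of the 2 lower members, ACSL4, which activates polyunsaturated fatty acids, had a value of -0.78 (adjusted p = 2e-07). The second, the brain isoform CPT1C, was at or below 1 CPM (log2 fold change -1.54 (SE 0.61), adjusted p = 0.039) and its call was lost in 4 of the 6 fits that leave out a bortezomib library (control replicates 1 and 2, Lo19S replicates 2 and 3; adjusted p from 0.12 to 0.17), and with library totals, without a count filter, with DESeq2 and with the replicate block (0.053, 0.055, 0.066 and 0.056). Without Lo19S replicate 1 its value was -2.41. Glycolysis genes were higher in 9 of 21 cases and lower in 3 (15 and 1 with library totals; median 0.13), with HK1 and the glucose transporter SLC2A1 higher by 0.49 and 0.42 (adjusted p = 4.9e-14 and 3.2e-07) and PGK1 lower, at -0.30 (adjusted p = 9.7e-10).

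The cholesterol pathway was lower. Of 23 genes, 13 were lower and 2 higher (median -0.38; 11 and 6 with library totals), while under DMSO 6 were lower and 3 higher (median -0.017). HMGCS1, which makes HMG-CoA, was at 383, 375 and 367 CPM in control and 239.5, 248 and 245 CPM in Lo19S libraries, 1.54-fold lower (log2 fold change -0.62 (SE 0.038), adjusted p = 1.3e-18). SREBF2, the transcription factor of the pathway, had a log2 fold change of 0.061 and was not called. TM7SF2, a sterol reductase, was higher, at 12.6, 12.6 and 13.8 CPM in control and 29.9, 26.6 and 27.6 CPM in Lo19S libraries (log2 fold change 1.11 (SE 0.11), adjusted p = 1.5e-10). The other higher member, SC5D, had a value of 0.14, and without Lo19S replicate 3 or with DESeq2 a single member was called higher.

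Calls among genes of iron-sulfur cluster assembly and protein lipoylation were about as frequent as over all genes (22% higher, 21.2% lower). Of 23 measured, 6 were higher and 4 lower (11 and 2 with library totals). Without control replicate 2, 2 were lower. The scaffold ISCU was higher, at 142, 141 and 129 CPM in control and 186, 176 and 172 CPM in Lo19S libraries (log2 fold change 0.37 (SE 0.048), adjusted p = 1.8e-08), and IBA57, a late assembly factor, was lower (log2 fold change -0.52 (SE 0.084), adjusted p = 1.6e-06). FDX1, the ferredoxin needed for lipoylation, was at 30.7, 31.2 and 36.9 CPM in control and 30, 31.9 and 25.6 CPM in Lo19S libraries. Its groups overlapped and it was not called (log2 fold change -0.20, adjusted p = 0.063), but it was without control replicate 1 or Lo19S replicate 2 (adjusted p = 0.047 and 0.031), with DESeq2 size factors (0.043), with the 6 bortezomib libraries alone (0.023) and without control DMSO replicate 3 (0.018). Mitochondrial chaperones, proteases and import genes were lower in 9 of 24 cases and higher in 4, where over all genes 21.2% were lower and 22% higher. Library totals turned this balance to 3 and 6, and the median from -0.051 to 0.06. GRPEL1, the nucleotide exchange factor of mitochondrial HSP70, was lower, at -0.40 (adjusted p = 4.3e-09) and DNAJA3 higher by 0.25 (adjusted p = 2e-06).

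Luminal identity genes were higher in Lo19S cells. Of 21 measured, 13 were higher and 3 lower, with a median log2 fold change of 0.35, while under DMSO 3 were higher and 7 lower with a median of -0.037. For 12 the gap between the states was higher with bortezomib than with DMSO by test, which called 14.4% of all genes higher. GATA3, a transcription factor that specifies luminal cells, was at 96.5, 93.5 and 97.9 CPM in control and 216, 224 and 221 CPM in Lo19S libraries, 2.3-fold higher without overlap (log2 fold change 1.20 (SE 0.046), adjusted p = 4e-26). Both levels were below those under DMSO, 700.1 ± 48.6 CPM in control and 663 ± 15.2 CPM in Lo19S libraries (SD, n = 3 each). PGR, the progesterone receptor, was at 50.8, 51.4 and 48.4 CPM in control and 105, 121 and 118 CPM in Lo19S libraries (log2 fold change 1.19 (SE 0.053), adjusted p = 4.1e-24), against 1094 ± 35 and 935 ± 2.33 CPM under DMSO. ESR1, the estrogen receptor, was at 28.6, 28.1 and 28 CPM in control and 40.4, 39.4 and 35.4 CPM in Lo19S libraries (log2 fold change 0.43 (SE 0.07), adjusted p = 1.5e-06). The mucin MUC1, the secretory factor AGR2 and the tight junction gene CLDN3 were higher by 0.97, 0.97 and 1.01 (adjusted p = 1.4e-10, 2.7e-20 and 5.9e-08). The keratins went both ways, KRT19 higher by 0.71 (adjusted p = 2.6e-20), KRT18 and KRT8 lower, at -0.33 and -0.23 (adjusted p = 2.6e-11 and 2.3e-08). TFF1, a trefoil peptide, rested on 14 counts in control and 3 counts in Lo19S libraries in all, a ratio of 5.31 with an exact 95% counting interval from 1.48 to 28.8, and was not called without control replicate 1 (adjusted p = 0.059) or Lo19S replicate 1 (0.053).

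Estrogen receptor targets showed no common direction, with 8 of 21 higher and 7 lower. The median of 0.007 took the other sign with the size factors of DESeq2, and 4 were lower without control replicate 1 or Lo19S replicate 3, and with library totals. GREB1, a cofactor of the receptor, was at 27.2, 27.8 and 31.6 CPM in control and 59.5, 64.8 and 66.7 CPM in Lo19S libraries (log2 fold change 1.15 (SE 0.067), adjusted p = 2.3e-19), where under DMSO it was lower in Lo19S cells by -0.27 (adjusted p = 4.2e-07). SERPINA1 and CXCL12, from the same list, were lower, at -0.56 and -0.51 (adjusted p = 1e-06 and 0.013).

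Basal, keratinocyte and contractile genes were lower in Lo19S cells. In the basal and mesenchymal list 6 of 10 measured genes were lower and none higher (median -0.47). KRT6A, a keratin of stressed and wounded epithelium, had the lowest log2 fold change of the genes named by rank. It was at 82.4, 88.4 and 74.7 CPM in control and 10.8, 12.9 and 10.7 CPM in Lo19S libraries, 7.28-fold lower without overlap (log2 fold change -2.86 (SE 0.09), adjusted p = 3.4e-30), and its near-identical copies make the attribution of its reads uncertain. CD44, a hyaluronan receptor, was at 642, 649 and 644 CPM in control and 453, 445 and 468 CPM in Lo19S libraries (log2 fold change -0.50 (SE 0.034), adjusted p = 3.3e-17), and fibronectin (FN1) was lower, at -0.56 (adjusted p = 4.1e-09). Among keratinocyte and cornified envelope genes, 7 of 12 were lower and 1, TGM1, higher (median -0.49), and none was higher without control replicate 2. One of the lower members, SBSN, passed the count filter through the control bortezomib libraries alone. Its mean was 1.88 CPM there and 0.375 CPM in Lo19S libraries, and below 0.04 CPM in both groups under DMSO. IVL, the envelope protein involucrin, was at 80.1, 73.6 and 80.9 CPM in control and 57, 51.8 and 47.8 CPM in Lo19S libraries (log2 fold change -0.59 (SE 0.069), adjusted p = 7.5e-10). Genes of the actomyosin cytoskeleton, many controlled by SRF or YAP, were lower in 12 of 20 cases and higher in 2 (median -0.38). ACTA2, smooth muscle actin, was at 14.9, 20.2 and 18.1 CPM in control and 6.93, 8.49 and 5.99 CPM in Lo19S libraries (log2 fold change -1.37 (SE 0.13), adjusted p = 1.1e-11), and MYL9, a myosin light chain, was lower, at -0.89 (adjusted p = 4.1e-18). Contractile genes were also lower under DMSO, 16 of 20, and for ACTA2 the gap under DMSO, -1.84, was wider by the test of the difference (adjusted p = 0.018). AJUBA and AMOTL2 were the higher members (0.61 and 0.53, adjusted p = 1.6e-08 and 1.4e-11).

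**Figure D3:**
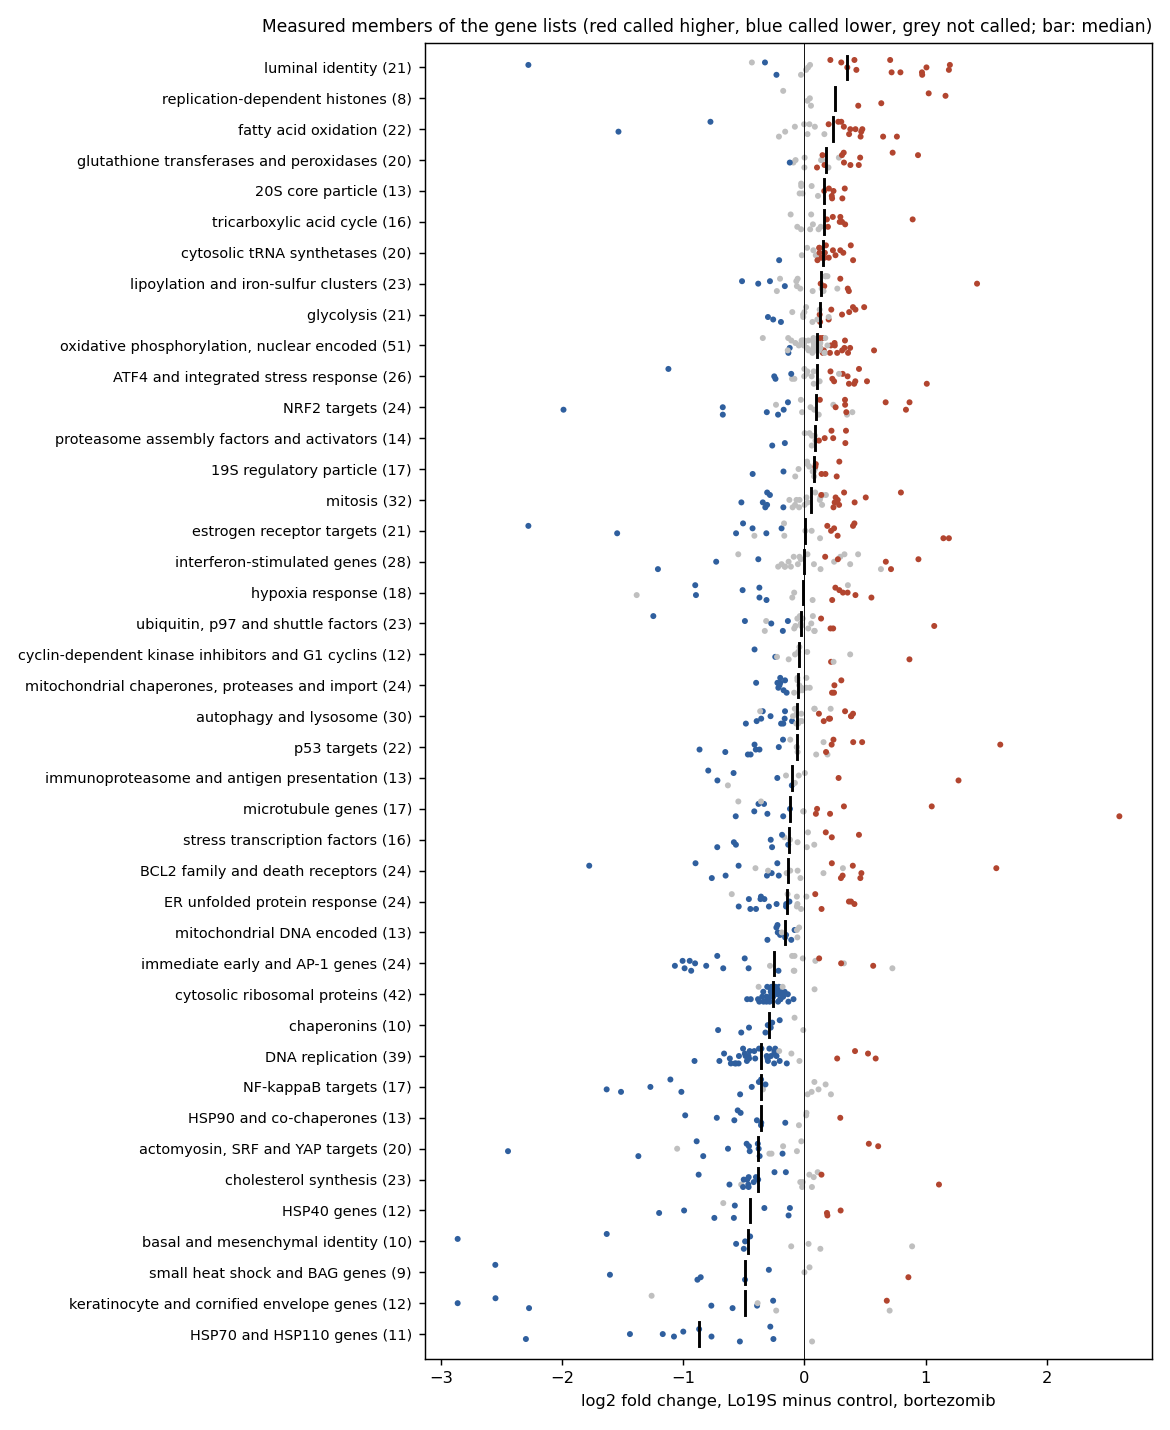
Each row is a gene list with the number of measured members in brackets, for lists of at least 4, and each point is a member's log2 fold change of Lo19S against control cells under bortezomib, red where called higher, blue where called lower and grey where not called, with a black bar at the median. The heat shock, keratinocyte, basal, cholesterol and DNA replication lists lie to the left of 0, and luminal identity and fatty acid oxidation to the right.

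DNA replication and mitosis genes parted. Of 39 replication genes 32 were lower and 4 higher in Lo19S cells (median -0.36), much as under DMSO, where 36 were lower (median -0.34). CCNE2, the cyclin that drives entry into S phase, was at 134, 132 and 137 CPM in control and 72.6, 73.2 and 69.8 CPM in Lo19S libraries, 1.88-fold lower without overlap (log2 fold change -0.91 (SE 0.053), adjusted p = 2.7e-19). ORC6 of the origin recognition complex and MCM2 of the replicative helicase were lower, at -0.70 and -0.48 (adjusted p = 7.1e-13 and 5.3e-12). The 4 higher genes were PRIM1 and POLA2 of the primase complex, RFC4 of the clamp loader and GINS1, at 0.59, 0.52, 0.42 and 0.27. Mitotic genes, all 32 of which were lower in Lo19S cells under DMSO (median -0.44), were higher in 10 cases and lower in 7 under bortezomib (median 0.058). For 26 of the 32 the gap between the states was higher with bortezomib than with DMSO by test, and for none was it lower. Among all genes that test called 14.4% higher and 13.4% lower. CDK1, the kinase that drives mitosis, was at 55, 54.8 and 56.2 CPM in control and 74.5, 82.1 and 79.2 CPM in Lo19S libraries, without overlap (log2 fold change 0.51 (SE 0.06), adjusted p = 2e-09). Under DMSO it was lower in Lo19S cells, 236 ± 3 against 329 ± 26.7 CPM (SD, n = 3 each; log2 fold change -0.48, adjusted p = 6.5e-13). PLK1, a mitotic kinase, went from 14.2, 11.8 and 11.9 CPM in control to 22.3, 23.6 and 20.6 CPM in Lo19S libraries (log2 fold change 0.80 (SE 0.11), adjusted p = 2.8e-08). MKI67, the proliferation antigen, was lower under both treatments, by -0.52 with bortezomib and -0.54 with DMSO (adjusted p = 2.4e-15 and 4.2e-17).

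Inhibitors of cyclin-dependent kinases did not move together. CDKN1A (p21) was at 231, 245 and 240.0 CPM in control and 177, 184 and 178 CPM in Lo19S libraries (log2 fold change -0.41 (SE 0.042), adjusted p = 1.9e-11), and CDKN2B (p15) at 19.4, 25.3 and 25.8 and 41.1, 40.7 and 45.9 CPM (log2 fold change 0.87 (SE 0.086), adjusted p = 1e-11). Of the 12 genes in that list 2 were higher and 2 lower, where over all genes 22% were higher and 21.2% lower. Its median of -0.047 took the other sign with library totals. Only 1 was higher without control replicate 3, where CCND1 lost its call (adjusted p = 0.063). Targets of p53 were lower in 9 of 22 cases and higher in 6, where over all genes 21.2% were lower and 22% higher. With library totals 5 were lower and 9 higher, and the median turned from -0.063 to 0.047. TP53I3, an oxidoreductase named for its induction by p53, was the widest, at 64.6, 64.8 and 69.7 CPM in control and 203, 207 and 201 CPM in Lo19S libraries, 3.07-fold higher (log2 fold change 1.62 (SE 0.045), adjusted p = 2.9e-32). GADD45A and GADD45B, stress sensors that bind growth-control kinases, were lower, at -0.65 and -0.87 (adjusted p = 2.6e-14 and 1.6e-15).

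Of the BCL2 family, caspases and death receptors, 9 of 24 were lower and 7 higher (median -0.13). The shares over all genes were 21.2% lower and 22% higher. One of the lower members, BCL2A1, passed the count filter through the control bortezomib libraries alone. It had 37 counts there, 12 in Lo19S bortezomib libraries and 0 in both groups under DMSO. PMAIP1 (NOXA), a BH3-only protein known for its induction by bortezomib, was at 44.5, 45.7 and 40.1 CPM in control and 22.6, 22.5 and 24.2 CPM in Lo19S libraries, 1.87-fold lower without overlap (log2 fold change -0.90 (SE 0.089), adjusted p = 7.4e-12). BCL2L11 (BIM), another BH3-only protein, was lower, at -0.77 (adjusted p = 1.9e-09). MCL1, the anti-apoptotic partner of NOXA, was lower, at -0.54 (adjusted p = 2.4e-18). Higher members included the anti-apoptotic BCL2L1 (BCL-xL) and BCL2L2 at 0.23 and 0.31, and TNFRSF1A, the receptor of tumor necrosis factor, at 0.47 (adjusted p = 0.00086, 0.00013 and 1.5e-06). The death receptor TNFRSF10B (DR5) was lower, at -0.21 (adjusted p = 7.2e-06).

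Inflammatory and immediate early genes were lower. Among NF-kappaB targets 10 of 17 were lower and none higher (median -0.36), although with library totals 3 were higher, and 1 was higher without control replicate 1, without Lo19S replicate 3, without control DMSO replicate 3 or with the 6 bortezomib libraries alone. CXCL8, the neutrophil-attracting chemokine interleukin 8, was at 39.3, 39 and 36.3 CPM in control and 15.2, 15.5 and 16.4 CPM in Lo19S libraries (log2 fold change -1.27 (SE 0.097), adjusted p = 2.1e-15). CCL20, another chemokine, the cytokine TNF and the feedback inhibitor TNFAIP3 (A20) were lower, at -1.51, -1.11 and -1.02 (adjusted p = 7.2e-12, 4.8e-10 and 1.2e-11). The inhibitor NFKBIA and the subunits NFKB1 and NFKB2 had values of 0.12, 0.026 and 0.059 and were not called. Of 24 immediate early and AP-1 genes, 12 were lower and 3 higher (5 higher with library totals; median -0.25). FOSL1 (FRA1) was at 133, 131 and 132 CPM in control and 64.3, 66.3 and 66.1 CPM in Lo19S libraries (log2 fold change -1.01 (SE 0.054), adjusted p = 1.2e-20), and the phosphatase DUSP1, which shuts off stress kinases, at 293, 311 and 297 and 156, 146 and 151 CPM (log2 fold change -0.99 (SE 0.043), adjusted p = 1.7e-24). JUN and FOS were lower, at -0.67 and -0.81 (adjusted p = 7.4e-20 and 0.0066), and JUNB was higher by 0.57 (adjusted p = 1.1e-06). MYC was at 57.8, 55.5 and 60.6 CPM in control and 54.8, 51.9 and 55.8 CPM in Lo19S libraries, with overlapping groups, a log2 fold change of -0.089 (adjusted p = 0.26) that was 0.022 with library totals, and no call under any scaling. Interferon-stimulated genes were called less often than all genes (22% higher, 21.2% lower), with 5 of 28 members higher and 3 lower. Without control replicate 3 or with DESeq2, 3 were higher. The median of -0.0031 was 0.11 with library totals. IFI44 was higher by 0.94 (adjusted p = 2.1e-06) and the guanylate-binding protein GBP1 lower, at -1.21 (adjusted p = 8e-08).

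Ribosomal protein genes were lower in small, even steps. Of 42 measured, 39 were lower and none higher, with a median of -0.26 (30 lower and a median of -0.15 with library totals). Under DMSO 1 was higher and none lower, and for 35 the gap was lower with bortezomib by test, which called 13.4% of all genes lower. RPLP0, a stalk protein of the large subunit, was at 856, 836 and 845 CPM in control and 673, 638 and 648 CPM in Lo19S libraries (log2 fold change -0.37 (SE 0.033), adjusted p = 2.3e-13), and RPS19 of the small subunit was lower, at -0.44 (adjusted p = 3.9e-09). RPL7 was the member with a positive value, 0.083, and was not called. Reads of these genes can be shared with pseudogenes. Autophagy and lysosome genes split, with 10 of 30 lower and 8 higher, where over all genes 21.2% were lower and 22% higher. Their median of -0.059 was 0.052 with library totals, under which 5 were lower. MAP1LC3B, the autophagosome membrane protein LC3B, was lower, at 457, 461 and 468 CPM in control and 332, 314 and 343 CPM in Lo19S libraries (log2 fold change -0.48 (SE 0.037), adjusted p = 3.4e-15), while the lysosomal proteases CTSD and CTSB were higher by 0.40 and 0.39 (adjusted p = 1.7e-09 and 3e-08).

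Smaller lists were mixed. Hypoxia genes were higher in 7 of 18 cases and lower in 6, where over all genes 22% were higher and 21.2% lower. Their median of -0.009 was 0.10 with library totals. The collagen hydroxylase P4HA2 was lower, at -0.90 (adjusted p = 1.2e-19), and VEGFA, the angiogenic factor, higher by 0.36 (adjusted p = 9.5e-10). Microtubule genes were lower in 7 of 17 cases (4 with library totals, without control replicate 2 or without Lo19S replicate 2) and higher in 6. MAP1A, a microtubule-associated protein best known from neurons, was the widest of these, at 13.2, 15.3 and 14.6 CPM in control and 85.4, 85.9 and 89.7 CPM in Lo19S libraries, 6.06-fold higher (log2 fold change 2.60 (SE 0.082), adjusted p = 3.4e-30), with a like gap under DMSO of 2.89 (adjusted p = 3.3e-27; difference between treatments -0.29, adjusted p = 0.15). Replication-dependent histone genes were higher in 4 of 8 cases and lower in none (2 higher without control replicate 2 or 3 or without Lo19S replicate 3), and their mRNA largely lacks a poly(A) tail, so the libraries capture little of it. Of 16 stress transcription factors, 7 were lower and 3 higher (5 higher with library totals). HSF4, a lens-enriched heat shock factor, was among the higher, by 0.45 (adjusted p = 0.0031).

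Called genes with a mean of at least 5 CPM in 1 or both groups and without overlap were also ranked by fold change. Since 1 group is enough, a gene can pass through the group where it is high, so the ranks describe these libraries only. Besides KRT6A, CRYAB and HSPA6, the 12 lowest were 9 genes of different kinds. IL1RL1 (ST2), the receptor of interleukin 33, was at 38.4, 43.1 and 36.3 CPM in control and 6.33, 6.44 and 7.43 CPM in Lo19S libraries, 5.72-fold lower (log2 fold change -2.52 (SE 0.11), adjusted p = 1.4e-23). CALCA, which encodes calcitonin and its related peptide, was at 23.7, 26.6 and 22.3 CPM in control and 4.3, 3.95 and 4.4 CPM in Lo19S libraries (log2 fold change -2.50 (SE 0.14), adjusted p = 5.5e-20). The chemokine CCL26, the hair keratins KRT81 and KRT75, the contractile regulator CNN1, the stathmin STMN4, the uncharacterized C4orf54 and the antisense transcript IDI2-AS1 had values of -2.18, -2.55, -1.97, -2.45, -1.92, -2.00 and -2.33. All 7 were below 12 CPM in every library, and without Lo19S replicate 3 CCL26 was at -2.78 and IDI2-AS1 at -3.12. CNN1 belongs to the actomyosin list and KRT81 to the keratinocyte list.

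At the other end, BLNK, an adaptor protein of B-cell receptor signaling, ranked highest and passed the 5 CPM minimum through the Lo19S libraries alone, at 0.489, 1.11 and 1.19 CPM in control and 6.21, 8.19 and 7.65 CPM in Lo19S libraries (log2 fold change 2.95 (SE 0.26), adjusted p = 1.7e-13). Its level under DMSO was above both, 14.5 ± 1.07 CPM in control and 28.5 ± 3.54 CPM in Lo19S libraries (SD, n = 3 each). ELF5, a transcription factor of the secretory alveolar lineage, was at 4.52, 5.12 and 3.69 CPM in control and 15.6, 18.4 and 17.6 CPM in Lo19S libraries (log2 fold change 1.95 (SE 0.13), adjusted p = 2.9e-17), against 85.4 ± 2.18 and 90.4 ± 2.26 CPM under DMSO. ROM1, a tetraspanin of photoreceptors, RYR1, the calcium release channel of muscle, and EPB41L3, a membrane skeleton protein, were higher by 2.19, 1.98 and 1.96. The aldehyde dehydrogenase ALDH3B2, the lipid droplet protein HILPDA and the potassium channel KCNK2 were higher by 1.96, 1.91 and 1.74. FSIP2, TMEM37 and the noncoding LNCAROD, at 2.20, 2.04 and 1.95, complete the 12 genes with MAP1A. Of these 12, MAP1A, RYR1 and EPB41L3 alone had a mean above 5 CPM in the control libraries as well. In CPM, the largest gains, together with those of HSPA5 and SQSTM1, were those of DYNC1H1, the dynein heavy chain, from 2103 ± 10.4 to 2796 ± 38.3 CPM, AHNAK, a giant scaffold protein, from 386 ± 8.58 to 869 ± 31.4 CPM, and PSAP, the lysosomal prosaposin, from 1171 ± 20.6 to 1408 ± 8.21 CPM (SD, n = 3 each).

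The Lo19S difference was larger and spread over more genes with bortezomib than without it. Under DMSO 3628 genes (24.7%) were called, 1720 higher (11.7%) and 1908 lower (13%), with at least 2-fold differences called for 180 higher (1.22%) and 35 lower genes (0.238%). Without control DMSO replicate 3, 4603 genes were called under DMSO and 7080 under bortezomib, of 14981 tested. The median absolute log2 fold change of all genes in the main fit was 0.14 with DMSO against 0.23 with bortezomib. The test of the difference between the 2 effects called 4094 genes (27.8%), 2126 (14.4%) with a higher and 1968 (13.4%) with a lower value under bortezomib. That difference was at least 2-fold for 182 (1.24%) and 227 (1.54%) of them. The bortezomib and DMSO comparisons share no library. Of the 3230 genes higher under bortezomib, 957 (29.6%) were higher under DMSO too, which is 55.6% of those higher under DMSO, and of the 3119 lower genes 826 (26.5%) were lower under DMSO, 43.3% of those lower there. Across the 14714 genes, which are not independent replicates, the 2 sets of fold changes had a Pearson r of 0.28 and a Spearman rho of 0.31.

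Opposite calls under the 2 treatments were made for 391 genes, 246 of them higher under bortezomib and lower under DMSO. DKK1, a secreted inhibitor of Wnt signaling, was the widest of these, at 6.23, 5.79 and 6.55 CPM in control and 17.6, 17.3 and 19.4 CPM in Lo19S libraries with bortezomib (log2 fold change 1.56 (SE 0.13), adjusted p = 2.6e-14). With DMSO it was at 12.8, 14.5 and 12.5 CPM in control and 8.61, 7.92 and 9.83 CPM in Lo19S libraries (log2 fold change -0.60, adjusted p = 6.4e-05), and the difference of the effects was 2.16 (SE 0.17, adjusted p = 3.9e-14). IGFBP5, a binding protein of insulin-like growth factors, was higher by 0.94 with bortezomib and lower, at -0.53 with DMSO (adjusted p = 3.7e-10 and 2.4e-12). The condensin subunit NCAPH and the channel subunit CACNG4 behaved likewise, at 0.67 and -0.54, and at 0.53 and -0.49. In the other direction, 145 genes were lower with bortezomib and higher with DMSO. C1orf116, an androgen-responsive gene, was at 34.8, 31.2 and 34.7 CPM in control and 14.3, 13 and 12.4 CPM in Lo19S libraries with bortezomib (log2 fold change -1.35 (SE 0.11), adjusted p = 5.9e-15), and at 0.529, 0.279 and 0.65 and 2.23, 1.29 and 0.855 CPM with DMSO (log2 fold change 1.61, adjusted p = 0.0011). Besides FTL and IVL, AKR1C1, a ketosteroid reductase with near-identical copies, was of this kind, at -0.67 and 1.59 (adjusted p = 0.0011 and 0.02). Its DMSO value rests on 10 counts in control and 30 counts in Lo19S libraries in all. DUSP13, a dual-specificity phosphatase, and NAP1L2, a histone chaperone, were higher under both treatments with a narrower gap under bortezomib: 1.53 against 5.08, and 1.44 against 4.33 (adjusted p of the difference = 6.3e-06 and 8.1e-08).

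**Figure D4:**
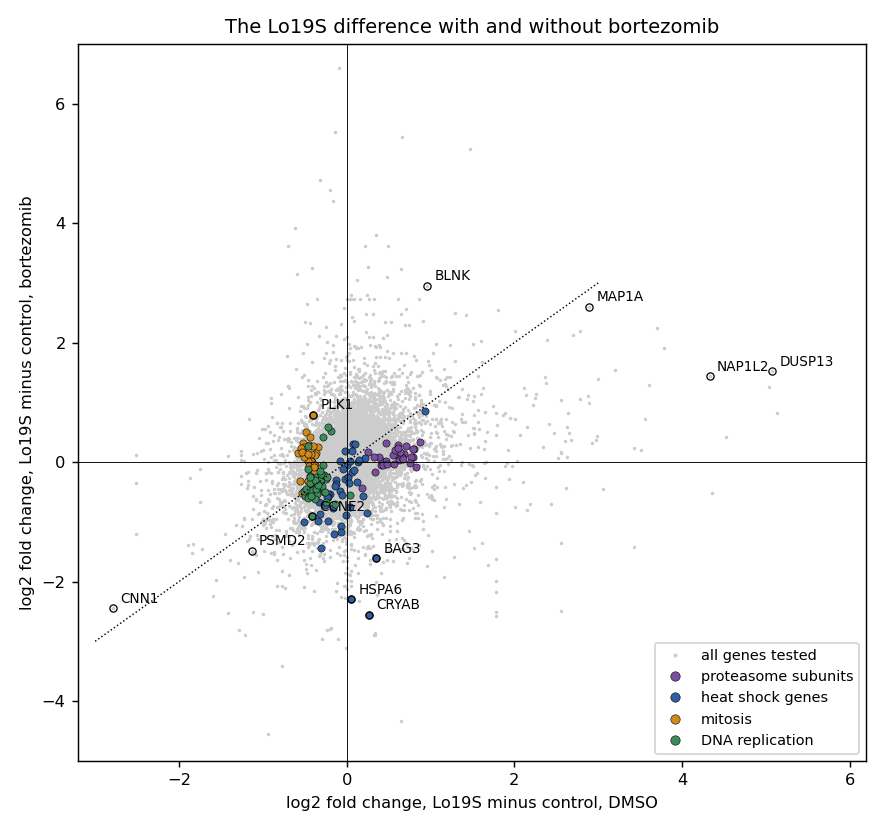
Each point is a gene, with the log2 fold change of Lo19S against control cells under DMSO on the x axis and under bortezomib on the y axis, and the dotted line marks equal values. Proteasome subunits (purple) lie to the right near y = 0, with medians of 0.61 under DMSO and 0.083 under bortezomib, heat shock genes (blue) have medians of -0.019 under DMSO and -0.53 under bortezomib, with BAG2 apart at the upper right, and mitosis genes (orange) lie to the left, around a DMSO median of -0.44.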

How the data were processed

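RNA of T47D cells was measured in 12 libraries of 4 groups, with groups taken from the sample labels. The deposited files hold whole-number read counts per gene, not normalized, for 57773 Ensembl identifiers, and per the submitters' processing notes the authors used STAR 2.5.4b, featureCounts 1.6.1 and GRCh37. Per the labels' protocols the library kit keeps strand and selects polyA. Whether counting used strand, and how multi-mapping reads were counted, is not given in the sources used here, and near-identical, overlapping and antisense genes are therefore uncertain. Symbols were matched for 51996 identifiers.

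Genes were filtered with filterByExpr by group (14714 kept), scaled with TMM factors and fitted with 1 coefficient per group over the 12 libraries in edgeR 4.0.16 (R 4.3.3), with the robust quasi-likelihood test and Benjamini-Hochberg adjustment over all genes tested. Calls were made at adjusted p below 0.05. Contrasts were Lo19S minus control under bortezomib, the same under DMSO, and their difference. The SE of a log2 fold change is approximate (its size divided by the root of the F statistic). The code was tested on simulated counts. Depth was 7376597 to 15003480 counts per library, and counting intervals cover counting error only.

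The members and the 46 gene lists (933 genes, 842 measured) were chosen with earlier results of these data known, so lists are described by counts and medians without a test. Genes named were PSMD2, the 12 highest and 12 lowest fold changes at 5 CPM or more without overlap, up to 4 called members of each list, 20 regulators, the 5 largest gains and losses of CPM, the 5 largest differences of effect and the 5 widest opposite calls each way, 215 in all, and further list members were named after their values were seen. Alternatives were DESeq2 size factors, library totals, no count filter, DESeq2 1.42.0, a replicate block, the 6 bortezomib libraries alone and leaving out each bortezomib library. Leaving out control DMSO replicate 3 was added after seeing the data. Promoters came from RefSeq (GRCh38.p14) by symbol. A promoter was found for 10640 of 14714 genes tested (72.3%), below the 80% set as a minimum, so the comparison of motif shares between called genes (heat shock, antioxidant, C/EBP-ATF and estrogen response elements) is void and not reported. Some genes named by these rules are not reported here.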

Additional observations from a re-analysis of the deposited data

Results flagged for a closer look

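For 51 of the named genes the Lo19S effect under bortezomib differed from that under DMSO by a test of the difference itself, with a size of at least 1 on the log2 scale. Values below are the effect under bortezomib minus that under DMSO, and a negative value means that the effect was lower with the drug. Genes below 1 CPM in 1 or more groups rest on few counts there, among them KRT6A, CRYAB, HSPA6, IDI2-AS1, C4orf54, FOSL1, TFF1, BMF, PSMB9, AKR1C1, C1orf116, TRAF1, KRT81, SPRR1A and BLNK. Their fitted differences depend on the prior count.

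In the 4 heat shock lists the differences were CRYAB -2.82, HSPA6 -2.35, BAG3 -1.96, HSPH1 -1.14, HSPA1B -1.10, DNAJA4 -1.05 and HSPA1A -1.01, and all 7 genes were lower in Lo19S cells under bortezomib. In the ubiquitin list ZFAND2A was at -1.34 and UCHL1 at -1.18. In the ATF4 list PPP1R15A was at -1.25 and ALDH1L2 at 1.08.

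In the keratinocyte list KRT6A was at -3.2, KRT81 at -1.55, SPRR1A at -1.24 and IVL at -1.20. Members of the luminal and estrogen receptor lists differed in sign, with TFF1 at -2.26 against GREB1 at 1.42, PGR at 1.42 and GATA3 at 1.28. In the p53 target list GADD45A was at -1.18 and TP53I3 at 1.31.

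In the NRF2 and glutathione lists AKR1C1 was at -2.27, GPX3 at -1.62 and FTL at -1.45. In the immediate early list FOSL1 was at -1.37, DUSP1 at -1.15 and DUSP2 at -1.02. The single members of other lists were TRAF1 (NF-kappaB targets) at -1.91, MAFG (stress factors) at -1.06, NDRG1 (hypoxia) at -1.01, PLK1 (mitosis) at 1.19, PSMB9 (antigen presentation) at 1.5 and BMF (BCL2 family) at 1.6.

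Genes in no list were DUSP13 at -3.55, C1orf116 at -2.96, NAP1L2 at -2.89, C1S at -2.85, IDI2-AS1 at -2.47, C4orf54 at -2.05 and PLCD1 at -1.13. Of these, DUSP13, NAP1L2 and C1S were higher in Lo19S cells under both treatments. Positive values in no list were CACNG4 at 1.02, AHNAK at 1.19, NCAPH at 1.21, IGFBP5 at 1.47, ALDH3B2 at 1.57, ELF5 at 1.86, HILPDA at 1.87, BLNK at 2.0, KCNK2 at 2.01, LNCAROD at 2.12 and DKK1 at 2.16.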

How the results depend on the processing

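Library totals in place of TMM factors moved the balance of calls: under bortezomib 4920 genes were higher and 1883 lower, and for the difference between treatments 3331 were higher and 1257 lower, against 2126 and 1968. DESeq2 called 121 genes with a difference of effect at least 2-fold higher, against 182. MYC, not called, took a value of 0.022 with library totals. The genes called under bortezomib numbered 6376 with DESeq2 size factors, 5799 without a count filter, 5390 with DESeq2 and 6875 of 13151 tested with the 6 bortezomib libraries alone, and 6175, 5657, 5382 and 6197 of these were among the 6349. Leaving out a bortezomib library gave 5368 to 5844 called genes, and for the difference of effect 3408 to 3801 against 4094. Without control DMSO replicate 3 there were 7080 and 4981.

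Same-numbered libraries did not deviate together: the correlations of their deviations from the group means under bortezomib were 0.0109, 0.0199 and 0.000443, and each library correlated best with its own number except control replicate 3, whose highest value was 0.0108 with Lo19S replicate 1, and Lo19S replicate 3, whose highest was 0.00135 with control replicate 2. The fit with the replicate number as a block called 6196 genes under bortezomib (3146 higher, 3050 lower) and 3889 for the difference, and among the genes named CPT1C alone lost its call (adjusted p = 0.056).

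Of the 211 named genes that were called, 185 kept the call in each fit that left out a library. The other 26 lost it in at least 1, among them PSMC1, PSMG4, PSMD10, PSMB9, TTC4, LIPT2, HSCB, SLC16A3, CPT1C, TFF1, KRT13, CCND1, BMF, TRAF1, OASL, OAS1, RPLP1, ANGPTL4, MAPT, TUBB3, H2BC4, H2AC6, H4C8, HSPA5 and PLCD1. With library totals 8 called genes lost the call, among them PSMC1, PSMD12, HSCB, CPT1C, RPLP1, TUBB3 and NFE2L2, and 8 list medians changed sign. Genes below about 1 CPM rest on few counts, and their fitted values depend on the prior count.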
